A study of Arabidopsis thaliana with 3 samples.

Results

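Aquaporins are the water channels of plant membranes. The genes followed here are 29 Arabidopsis thaliana loci that the array's annotation describes with the words aquaporin or major intrinsic, out of 25665 loci with a probe, and each of the 29 had 1 probe. They were measured on 3 oligonucleotide arrays with 2 colours each, which set linearly amplified RNA of whole seedlings of the mutant tdt-1 against that of wild type, both aged 3 days. Seedlings of both genotypes were raised on MS agar at 22 °C in constant light. RNA of tdt-1 was labelled with Cy5 on replicates 1 and 2 and with Cy3 on replicate 3, and wild-type RNA carried the other dye. The labels name neither the gene mutated in tdt-1 nor the accession used as wild type. They call the arrays biological replicates but do not say whether seedlings were pooled, so the p-values measure the spread between these 3 arrays. Each ratio below is a log2 value with tdt-1 over wild type, and a mean is given with its SD over the 3 arrays. In whole seedlings, fewer cells of a type and less RNA per cell cannot be told apart.

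Aquaporins belong to the major intrinsic protein family and assemble as tetramers in which each subunit forms its own pore. Plasma membrane intrinsic proteins (PIPs) let water in and out of the cell, with PIP1 proteins reaching the membrane mainly in complexes with PIP2 proteins. Tonoplast intrinsic proteins (TIPs) sit in the membrane of the vacuole, whose filling with water drives the expansion of seedling cells. NOD26-like proteins (NIPs) carry boric acid, metalloids and other small uncharged solutes, and small basic proteins (SIPs) lie in the endoplasmic reticulum. By a list of family names, 10 of the 29 loci were PIPs, 6 TIPs, 9 NIPs and 2 SIPs, while AT1G52180 and AT2G29870 had no place in it. Genes are called by their RefSeq symbol. Where that differs from the family number, the plot of ratios by array gives both.

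To enter the test, a probe had to be flagged well above background on each of the 3 arrays in tdt-1, in wild type or in both. Among the 29 aquaporins 24 met this, and 19 were above background in both genotypes throughout. By the file headers, the software's multiplier for this flag was 2.6 on replicates 1 and 2 but 13 on replicate 3. The flag is thus not the same criterion on each array. Of the other 5 tested genes, BETA-TIP qualified through tdt-1 and the other 4 (TIP5;1, NIP2;1, NIP3;1 and NIP7;1) through wild type, so their ratios rest on a weak signal in 1 genotype. The untested loci were TIP1;3, NIP4;1, NIP4;2, AT1G52180 and AT2G29870. Their mean ratios lay between −0.15 and 0.17. NIP4;1, the lowest of them, was not well above background in tdt-1 on any array and was above it in wild type on 1 of 3. Its ratios of −0.46, −0.11 and 0.11 differed in sign.

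The clearest differences were rises of the tonoplast channels TIP2;3 and TIP2;2 and of the plasma membrane channel RD28, and a fall of the plasma membrane channel PIP2;4. Of the 24 tested aquaporins 5 rose, 1 fell and 18 did not pass (adjusted p under 0.05 by limma over all loci). Over all 20484 tested loci, 7.36% rose, 5.97% fell and 13.3% passed in either direction. The median ratio of the 24 was 0.58, 0.55 and −0.07 on replicates 1, 2 and 3. Over the 3 arrays the median of their means was 0.42, against 0.02 for all loci. By subfamily, 3 of 5 TIPs rose, 1 of 10 PIPs rose and 1 fell, none of 7 NIPs passed, and 1 of 2 SIPs rose. The TIP count includes BETA-TIP, and 4 aquaporins rose and 1 fell when both genotypes had to be above background. Before adjustment, 14 of the 24 had an unadjusted p under 0.05, against 35.1% of all loci.

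**Figure D1:**
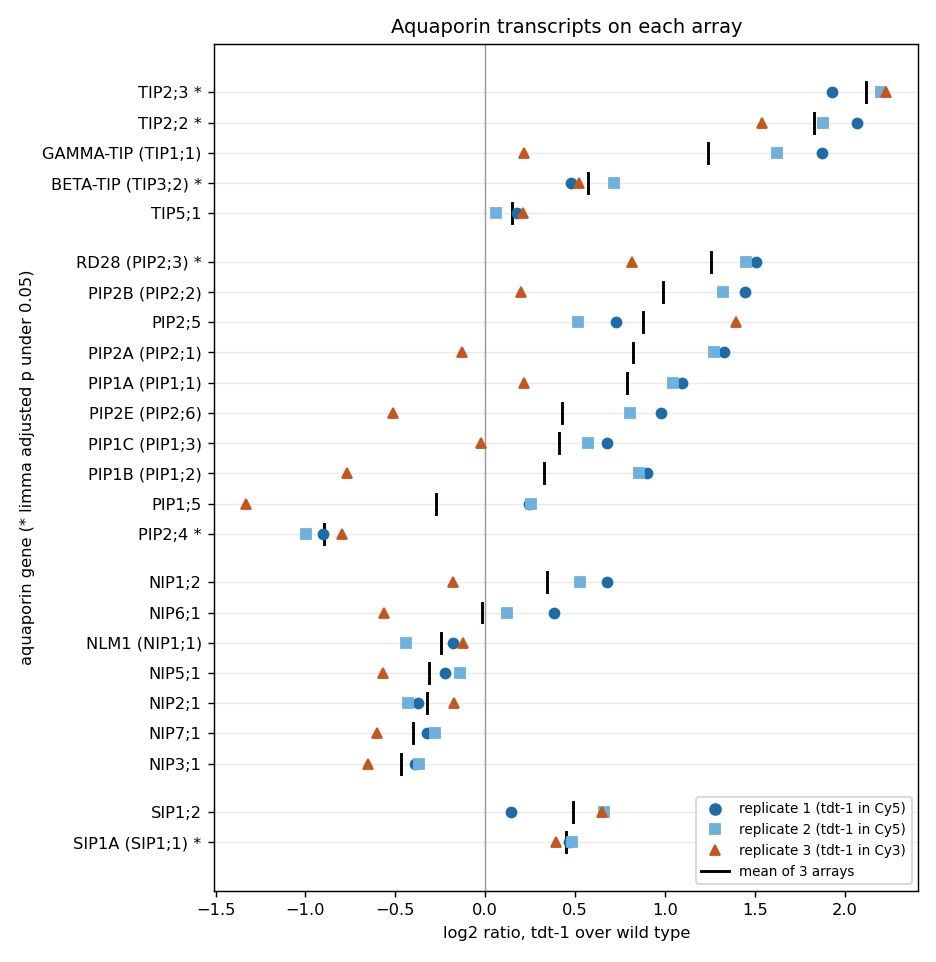
Log2 ratio of tdt-1 over wild type (horizontal axis) for the 24 tested aquaporins (vertical axis), grouped as TIP, PIP, NIP and SIP, with a symbol for each array and a bar for the mean of 3 arrays. The top row lies furthest right on replicates 2 and 3, while most PIPs have replicate 3 well to the left of replicates 1 and 2.

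The 2 highest members were both vacuolar channels known from roots. TIP2;3 (AT5G47450), a tonoplast channel that also passes ammonia, read 1.93, 2.20 and 2.23 on replicates 1, 2 and 3. Its normalised intensity was 1276, 1566 and 11530 in tdt-1, against 335.2, 340.9 and 2452 in wild type. On each array tdt-1 was thus several times brighter than wild type. The mean of 2.12 ± 0.17 is a 4.35-fold rise (limma adjusted p = 0.0144), and it ranked 64 from the top of the 20484 tested loci. TIP2;2 (AT4G17340), its close relative in the same tonoplast group, read 2.07, 1.88 and 1.54. Normalised intensity was 8676, 12200 and 88280 in tdt-1 and 2064, 3311 and 30320 in wild type. Its rise of 1.83 ± 0.27 is 3.56-fold (limma adjusted p = 0.0158).

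GAMMA-TIP (AT2G36830), the tonoplast channel of elongating cells, behaved differently on the arrays. Its ratios were 1.88 and 1.62 on replicates 1 and 2 but 0.21 on replicate 3. Its spot was saturated in tdt-1 on 1 array, which is not identified here. Saturation can understate the ratio on that array, and the low ratio of replicate 3 is not tied to it. The mean of 1.24 ± 0.89 did not pass (limma adjusted p = 0.0965), with a 95% interval of 0.24 to 2.23.

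BETA-TIP (AT1G17810), a channel of the protein storage vacuoles of seeds, entered the test through tdt-1 alone, so its call is not independent of that choice. It read 0.48, 0.72 and 0.52, with normalised intensities of 100.7, 98.2 and 129.7 in tdt-1 against 72.4, 59.7 and 90.4 in wild type. These are dim spots, and wild type was well above background on 1 of 3 arrays. The mean was 0.57 ± 0.13 (limma adjusted p = 0.0380), against 1.66 with the scanner's ratios (limma adjusted p = 0.0191), so the size of the difference depends on the processing. TIP5;1 (AT3G47440), known from pollen, read 0.18, 0.06 and 0.21, a mean of 0.15 ± 0.08 (limma adjusted p = 0.2997), which was −0.09 with the scanner's ratios and −0.01 with median centring. All 5 tested TIPs found by the annotation words had ratios above 0 on every array, which held for 31.4% of all loci. With the TIPs that those words missed, it held for 6 of 9 tested. Of these 9, 3 rose and 1 fell, against 7.36% and 5.97% of all loci. The median of the means was then 0.46, against 1.24 for the 5.

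**Figure D2:**
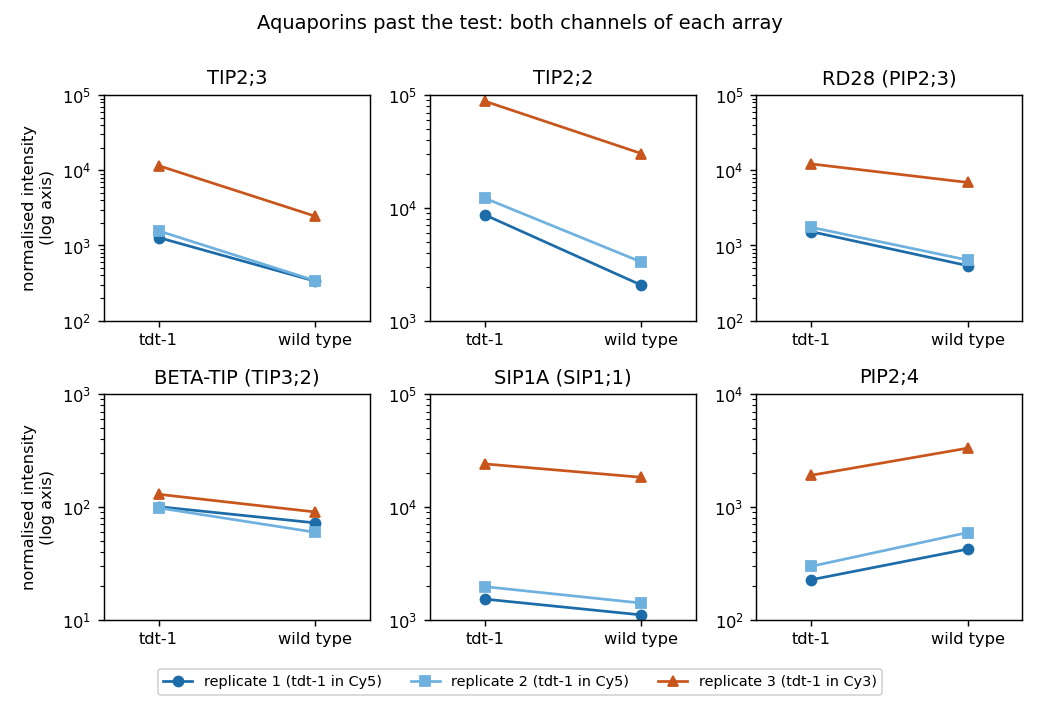
Normalised intensity on a log axis in tdt-1 (left) and wild type (right) for the 6 aquaporins past the test, with 1 line for each array. Lines fall to the right where tdt-1 is brighter, as for all but the last gene, PIP2;4, where they rise. Replicate 3, scanned with another setup, is brighter in both genotypes.

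Among the PIPs, RD28 (AT2G37180), first known as a gene responsive to desiccation, rose 2.39-fold. It read 1.51, 1.45 and 0.82, a mean of 1.26 ± 0.38 (limma adjusted p = 0.0282). Normalised intensity was 1530, 1747 and 12150 in tdt-1, against 539, 639.9 and 6893 in wild type. All 3 tdt-1 values exceeded the wild-type value of the same array, by the smallest ratio on replicate 3. Its neighbour on the chromosome is PIP2B (AT2G37170), a main water channel of roots whose coding sequence is very similar. PIP2B read 1.45, 1.33 and 0.20 and did not pass at 0.99 ± 0.69 (limma adjusted p = 0.0922). The array annotation ties each of their probes to 1 locus, but whether the probes tell the transcripts apart was not tested.

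PIP2;4 (AT5G60660), a plasma membrane channel found mainly in roots, was the member that fell. It read −0.90, −0.996 and −0.80, with normalised intensities of 226.5, 297.7 and 1911 in tdt-1 and 423.6, 593.8 and 3325 in wild type. Wild type was brighter on each array by a like factor. The mean of −0.90 ± 0.10 is a 1.86-fold fall (limma adjusted p = 0.0197). It was the lowest aquaporin mean, and 0 of the 24 had a mean ratio of −1 or less, against 2.88% of all loci.

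The other PIP2 genes found by the annotation words stood above 0 on average without passing. PIP2;5 (AT3G54820), a channel known to be induced by drought and cold, read 0.73, 0.52 and 1.40, highest on replicate 3. Its mean was 0.88 ± 0.46 (limma adjusted p = 0.0618), against 1.497 with the scanner's ratios, where it passed (limma adjusted p = 0.0382). The wild-type spots of PIP2;5 were dim, with normalised intensities of 69.87, 94.96 and 152.3, against 115.7, 135.9 and 401.5 in tdt-1. The size of its difference thus depends on the processing. PIP2A (AT3G53420), an abundant water channel of root and leaf, read 1.33, 1.28 and −0.13. PIP2E (AT2G39010) read 0.98, 0.81 and −0.51. Both genes were clearly higher in tdt-1 on replicates 1 and 2 and lower on replicate 3.

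None of the 4 tested PIP1 genes found by the annotation words passed in limma, and 1 had an unadjusted p under 0.05. That gene was PIP1A (AT3G61430), which read 1.097, 1.05 and 0.22 (mean 0.79 ± 0.49, limma adjusted p = 0.0833). PIP1C (AT1G01620) read 0.68, 0.57 and −0.02 (mean 0.41 ± 0.38, limma adjusted p = 0.178). PIP1B (AT2G45960), a channel that also passes carbon dioxide, read 0.90, 0.86 and −0.77. PIP1;5 (AT4G23400) read 0.24, 0.26 and −1.33. The interval of its mean ran from −1.29 to 0.74, so a fall or a rise of up to these sizes is within the error.

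Replicate 3 differed from the other arrays in dye orientation, array layout, scan and software version. As a biological replicate by its label it may also differ in its seedlings, and none of these can be told apart. It was the lowest of the 3 arrays for 8 of 10 PIPs, against 51.5% of all loci. In a fit with a dye term, the ratio of replicates 1 and 2 differed from that of replicate 3 for 9 of 10 PIPs, 2 of 5 TIPs, 3 of 7 NIPs and neither SIP (limma adjusted p under 0.05), against 44.6% of all loci. Of these 14 aquaporins 13 were higher on replicates 1 and 2, and PIP2;5 was higher on replicate 3. That fit takes its error from the spread between replicates 1 and 2 and sets replicate 3 against them as a single array. The gap was widest for PIP1B, whose ratio on replicate 3 was −1.65 from the mean of replicates 1 and 2. It was −1.58 for PIP1;5, −1.53 for GAMMA-TIP, −1.43 for PIP2A and −1.41 for PIP2E. Among the genes past the test it was −0.66 for RD28, −0.43 for TIP2;2, 0.17 for TIP2;3, 0.15 for PIP2;4, −0.08 for SIP1A and −0.08 for BETA-TIP. Medians over the PIPs were 0.94, 0.83 and −0.08 on the 3 arrays, and those over the TIPs 1.88, 1.62 and 0.52. Over the 24 aquaporins, ratios correlated at r = 0.97 between replicates 1 and 2 and at 0.61 and 0.66 with replicate 3. The genes of an array share its seedlings, labelling and scan, so this describes the arrays and tests nothing.

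**Figure D3:**
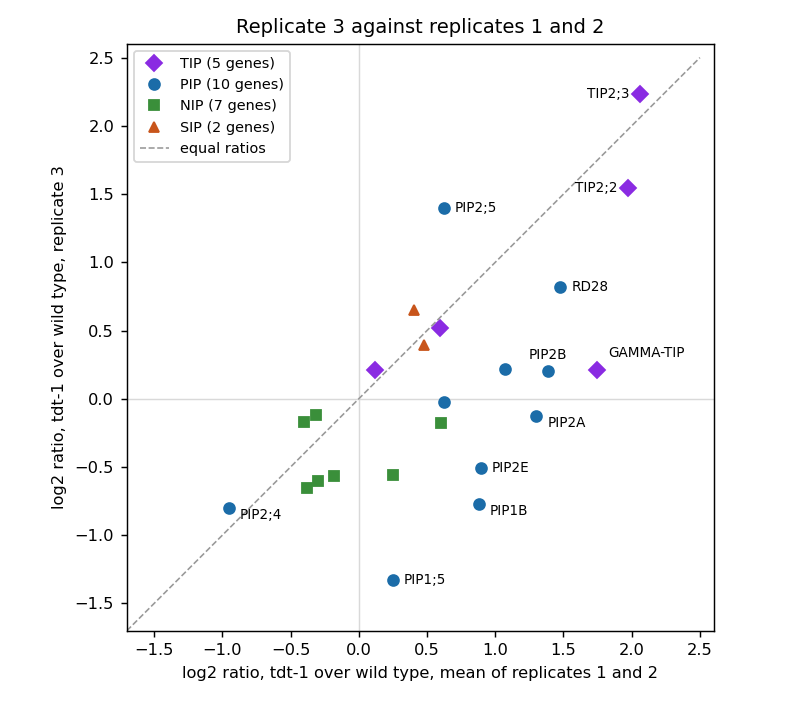
Log2 ratio of tdt-1 over wild type on replicate 3 (vertical axis) against the mean of replicates 1 and 2 (horizontal axis) for the 24 tested aquaporins, with a symbol for each subfamily. The highest TIP and the lowest PIP lie near the dashed line of equal ratios, while most PIPs and GAMMA-TIP lie below it.

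NIP means lay between −0.47 and 0.34, and none of the 7 passed in limma (3 had an unadjusted p under 0.05). Of 7 tested NIPs, 5 had ratios below 0 on every array, which held for 27.5% of all loci, and the NIP median was −0.31. Of these 5, 3 entered the test through wild type alone, a choice that leaves room mainly for ratios below 0. NIP3;1 (AT1G31885), a channel that passes arsenite, read −0.39, −0.37 and −0.65, a mean of −0.47 ± 0.16 (limma adjusted p = 0.0581). NIP7;1 (AT3G06100), a boric acid channel of anthers, read −0.32, −0.28 and −0.60, a mean of −0.40 ± 0.17 (limma adjusted p = 0.0837). In tdt-1 these genes were well above background on 1 and on 2 of 3 arrays. NIP2;1 (AT2G34390), a channel induced by lack of oxygen, was not well above background in tdt-1 on any array. It read −0.38, −0.43 and −0.17, a mean of −0.33 ± 0.14 (limma adjusted p = 0.102), which is 1.25-fold lower in tdt-1. With the scanner's ratios these 3 dim genes passed, at −1.68 for NIP3;1, −1.56 for NIP2;1 and −0.96 for NIP7;1 (limma adjusted p = 0.0248, 0.0387 and 0.0401).

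The boric acid channel of roots, NIP5;1 (AT4G10380), stood at −0.31 ± 0.23 (limma adjusted p = 0.159, 95% interval −0.64 to 0.02). NIP6;1 (AT1G80760), a boric acid channel of young shoot tissue, read 0.38, 0.12 and −0.56 around a mean of −0.02. NIP1;2 (AT4G18910), a channel that carries malate-bound aluminium, read 0.68, 0.53 and −0.18, the highest NIP mean at 0.34 ± 0.46. NLM1 (AT4G19030), a channel that passes arsenite, read −0.18, −0.44 and −0.12, a mean of −0.25 ± 0.17 (limma adjusted p = 0.187). The NIPs of mixed sign were thus higher in tdt-1 on replicates 1 and 2 and lower on replicate 3, as for several PIPs.

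Of the SIPs, SIP1A (AT3G04090) rose by a small and even amount, 0.47, 0.48 and 0.39, a mean of 0.45 ± 0.05 (limma adjusted p = 0.0456). Its intensity was 1526, 1968 and 24100 in tdt-1 and 1105, 1407 and 18340 in wild type. SIP1;2 (AT5G18290) read 0.15, 0.66 and 0.65, a mean of 0.49 ± 0.29 (limma adjusted p = 0.0965). The larger mean of SIP1;2 thus came with a wider spread.

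Few of these calls held on fewer arrays or another scaling. Of the 6 genes past the test, TIP2;2 and TIP2;3 passed without replicate 1 (smallest limma adjusted p = 0.0249), and the second of them also passed without replicate 2 (limma adjusted p = 0.0361), where the other had 0.0537. For the remaining calls the limma adjusted p without replicate 1 and without replicate 2 was 0.0915 and 0.112 for RD28, 0.0989 and 0.136 for PIP2;4, 0.186 and 0.303 for BETA-TIP, and 0.303 and 0.367 for SIP1A. None of the 6 passed with replicates 1 and 2 averaged, where the smallest adjusted p was 0.0503 by limma, or with median centring in place of loess, where it was 0.0852. Few loci of any kind passed in these alternatives, 0.962% without replicate 1, 0.542% without replicate 2, 0.21% with the average and 0.0049% with median centring. With median centring the mean of TIP2;3 was 2.41, of RD28 1.565 and of PIP2;4 −0.71. BETA-TIP and SIP1A did not pass without background correction, and SIP1A did not pass with the scanner's own ratios. No direction of the 6 turned in an alternative that tested the gene. Where an alternative drops, averages or reweights arrays, a ratio with 1 sign on all of them cannot turn. Without replicate 3, 23 of the 24 passed, as did 60.9% of all loci, which rests on the spread between replicates 1 and 2 alone.

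The annotation rule missed 8 further family genes, which the array describes as intrinsic or integral proteins of the plasma membrane or tonoplast, or as a small basic membrane protein. All 8 were tested, 1 rose and 1 fell, against 7.36% and 5.97% of all loci. PIP2;8 (AT2G16850) read 0.65, 0.78 and 1.12, a mean of 0.85 ± 0.24 (limma adjusted p = 0.0314). TIP4;1 (AT2G25810), a tonoplast channel found in roots, read −0.80, −0.83 and −0.42, a mean of −0.68 ± 0.23 (limma adjusted p = 0.0412). The limma adjusted p without replicate 1 and without replicate 2 was 0.0958 and 0.147 for the first of them and 0.205 and 0.251 for the second. Neither passed with median centring, and TIP4;1 did not pass with the scanner's ratios.

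The remaining 6 genes outside the rule did not pass. TIP3;1, the alpha channel of seed storage vacuoles and the partner of BETA-TIP, stood at 0.46 ± 0.18 (limma adjusted p = 0.0661). PIP3 (PIP2;7) was below 0 on every array, at −0.43, −0.31 and −0.97 (limma adjusted p = 0.0911). DELTA-TIP (TIP2;1), the delta channel of the same tonoplast group as the highest members, read −0.05, −0.07 and −1.62, with a saturated spot in tdt-1 on 1 array. The gamma channel TIP2 (TIP1;2) read 0.27, 0.46 and −1.41. Both were far lower on replicate 3 than on the other arrays. Normalised intensity there in tdt-1 was 69590 for DELTA-TIP and 110100 for TIP2, which had no saturated spot. The array with the saturated spot of DELTA-TIP is not given. PIP1;4 and SIP2;1 stood at 0.32 ± 0.29 and −0.03 ± 0.08. With these genes the whole family had 6 that rose and 2 that fell of 32 tested, and its median became 0.34. Of all loci 7.36% rose and 5.97% fell.

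Proton pumps energise the membranes that aquaporins sit in and set the solute gradients that water follows. Of 11 tested pump genes 2 fell, none rose and 9 did not pass, against 5.97% of all loci that fell and 7.36% that rose. HA3 (AHA3), a plasma membrane pump of phloem companion cells, read −1.63, −1.79 and −1.66 (mean −1.69 ± 0.09, limma adjusted p = 0.0144). HA2 (AHA2), the main plasma membrane pump of roots, read −0.99, −1.005 and −0.74 (mean −0.91 ± 0.15, limma adjusted p = 0.0220). Over this and the following lists 1 gene passed as lower without replicate 1 and 0 without replicate 2. Among 8 genes for the trafficking and regulation of aquaporins none passed in limma, and 2 had an unadjusted p under 0.05. OST1, a kinase of abscisic acid signalling that phosphorylates an aquaporin of guard cells, had the smallest p at 0.32 ± 0.13 (limma adjusted p = 0.102). Of 5 tested genes listed as boron exporters, which move the solute of several NIPs, none passed in limma and none had an unadjusted p under 0.05. BOR5 had the smallest p at 0.44 ± 0.49 (limma adjusted p = 0.222). Over these 3 lists 8 of 24 genes (33.3%) had an unadjusted p under 0.05, against 35.1% of all loci.

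Markers of seedling tissues were measured beside the aquaporins, since several of these channels belong to roots, shoots or seeds. All 8 root markers and all 8 photosynthetic markers were well above background in both genotypes on every array. The photosynthetic markers had median ratios of −0.22, −0.36 and −2.14 on replicates 1, 2 and 3, and all 8 were below 0 on every array. On each of the 3 arrays these medians are set by genes with saturated spots, so they are not exact. Of the light-harvesting proteins with no saturated spot, LHCB2.1 read −0.46, −0.52 and −1.67, and LHCB5 read −0.73, −0.77 and −2.62. None of the 8 passed in limma and 3 had an unadjusted p under 0.05. GPRI1 (GLK1), a regulator of chloroplast genes, had the smallest p at −0.49 ± 0.16 (limma adjusted p = 0.0539). Their summed intensity was 322400, 324200 and 494000 in tdt-1 and 385500, 423300 and 2457000 in wild type, with 3 or 4 of the 8 saturated in 1 or both genotypes on each array. Relative to wild type they were thus lowest on the array on which most PIPs were lowest.

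The root markers had medians of −0.38, −0.33 and 0.16. Their summed intensity was 2852, 3864 and 53060 in tdt-1 and 3336, 4320 and 45100 in wild type. CASP1, of the Casparian strip, rose by 0.69 ± 0.14 (limma adjusted p = 0.0295) and PHO1, which loads phosphate into the xylem, fell by 1.13 ± 0.22 (limma adjusted p = 0.0204), and the other 6 did not pass.

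The seed markers had medians of 1.05, 0.15 and 1.06 over 7 tested genes. EM1, a late embryogenesis abundant protein, rose by 1.45 ± 0.13 (limma adjusted p = 0.0149) and 6 did not pass. Over all 10 seed markers, summed intensity was 1956, 1465 and 9641 in tdt-1 and 929.6, 1112 and 5259 in wild type, and 7 to 10 of them were above background in tdt-1 against 6 to 8 in wild type. The sums were thus higher in tdt-1 on each array, as was BETA-TIP, while 3 of the 7 tested markers had ratios of mixed sign. The part that tissue or seed RNA has in the aquaporin ratios was not tested. Over the 3 marker lists 3 of 23 tested genes (13.0%) passed in limma, near the 13.3% of all loci. Of the marker genes 1 passed without replicate 1 and 0 without replicate 2.

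**Figure D4:**
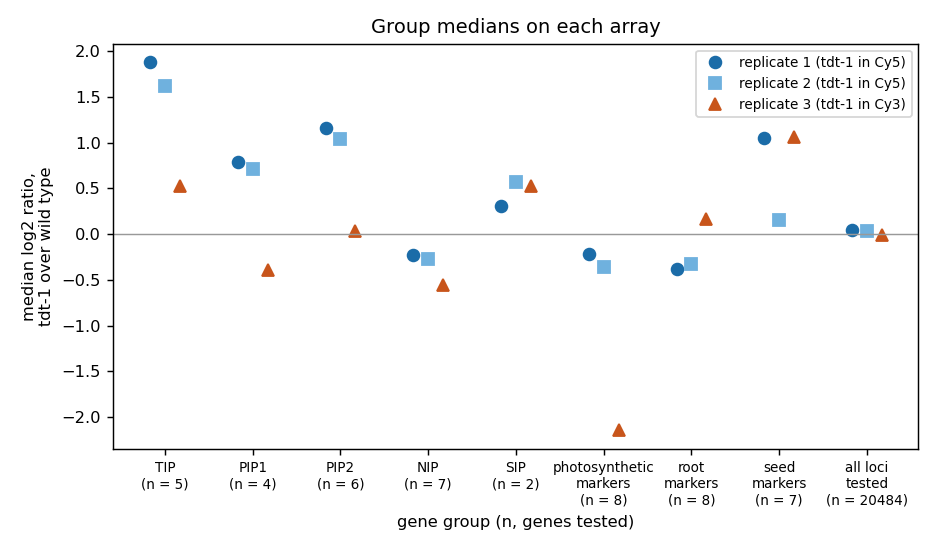
Median log2 ratio of tdt-1 over wild type on each array (vertical axis) for the aquaporin subfamilies, 3 lists of tissue markers and all loci tested (horizontal axis, with the number of genes tested). The TIP, PIP1, PIP2 and NIP medians and that of the photosynthetic markers are lowest on replicate 3, while all loci stay near 0 on each array.

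On the arrays as a whole, 65.2% to 69.4% of spots were well above background in tdt-1 and 69.4% to 79.7% in wild type. The setting of this flag differed on replicate 3. The median ratio of all tested loci was 0.04, 0.03 and −0.0071, so every change above is relative to the bulk of transcripts. RefSeq lists TDT among the synonyms of DCP2 (AT5G13570), the mRNA decapping enzyme, whose probe read −0.44, −0.46 and −0.96 (limma adjusted p = 0.0629). No source used here places the lesion relative to that probe, so its value does not check the labels.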

How the data were processed

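The authors deposited Agilent Feature Extraction files with linear spot intensity values for 2 channels. Per the file headers, the software was version 8.5.1.1 for replicates 1 and 2 and 9.1.3.1 for replicate 3. Per the file headers, the files also hold a log10 ratio of Cy5 over Cy3 after the software's dye normalization, and 0 or 1 flags. The authors' deposited series table holds log2 ratios. It had slope 1 and r = 1 against the scanner ratios turned to tdt-1 over wild type, and its column medians were 0.

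Mean signals were corrected with limma 3.58.1 (R 4.3.3) by normexp with an offset of 50 and normalised by loess within arrays, control spots at weight 0. The sign was turned on replicate 3. Control and non-uniform spots were dropped, spots of a probe averaged, and the brightest tested probe of a locus taken. Each locus was tested against 0 with lmFit and eBayes, with Benjamini-Hochberg adjustment over 20484 loci. The script was checked on simulated data with independent noise of the same size on all 3 arrays. That check does not cover the difference of replicate 3 or the error rate of the calls. A normalised intensity is the value of a channel after loess.

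Names come from the TAIR10.1 RefSeq table, which held all 29 loci. Subfamilies, companion genes and markers are lists of locus codes. Members and lists were chosen with earlier results of these data known. Genes past the test, the 2 highest and 2 lowest of each subfamily, and genes whose ratio changed sign by over 1 are given by array. Of each companion or marker list, those past the test are named (otherwise the smallest p). The number of arrays limits the precision.

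Alternatives covered background correction, normalization, the deposited ratios, filters, probe choice, a dye term, array weights, an intensity trend, averaging replicates 1 and 2, and leaving out each array.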

Additional observations from a re-analysis of the deposited data

How the results depend on the processing

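The reported test was itself paired, since the arrays form 1 set of ratios in which each array pairs the genotypes, so no further pairing was added. Counts are given as higher and lower in tdt-1, against 5 and 1 aquaporins, 1508 and 1222 loci, 0 and 2 companion genes and 2 and 1 tissue markers in the reported test. Median centring gave 0 and 0 aquaporins, 1 and 0 loci, 0 and 0 companion genes and 0 and 0 markers, and put the median of all tested loci at 0.10, against 0.02 with loess, and that of the aquaporins at 0.60. Averaging replicates 1 and 2 gave 0 and 0 aquaporins, 24 and 19 loci, 0 and 0 companion genes and 0 and 0 markers. Without background correction 3 and 1 aquaporins passed. The scanner's log ratio gave 5 and 4 aquaporins, and the deposited series table gave 5 and 4. There PIP2;5, with dim wild-type spots, was added as higher and 3 dim NIPs as lower. The intensity trend gave 2 lower markers. The dye term gave 15 and 7 aquaporins, 6941 and 6260 loci, 9 and 6 companion genes and 9 and 12 markers. Array weights gave 16 and 6 aquaporins, 8170 and 6710 loci, 9 and 8 companion genes and 5 and 12 markers, though the estimate of the weights stopped before its convergence tolerance. In both, the spread toward replicate 3 counts little or not at all (its weight was 0.106, against 1.27 and 7.395), which was also so without replicate 3. Leaving out 1 array in turn gave 1 to 17 higher and 0 to 6 lower aquaporins, 66 to 7002 higher and 45 to 5463 lower loci, 0 to 8 higher and 0 to 8 lower companion genes, and 0 to 5 higher and 0 to 12 lower markers, each highest without replicate 3.

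The joint NIP and SIP median of −0.25 was −0.22 without background correction, −0.29 with the scanner's ratio, −0.29 with the deposited table, −0.12 with median centring, −0.15 with no filter on dim probes, −0.22 with the dye term, −0.16 with array weights and −0.22 with replicates 1 and 2 averaged. It reversed to 0.16 when both genotypes had to be above background, where the 3 NIPs dim in tdt-1 were no longer tested. Leaving out arrays gave −0.28 to −0.15 for it, 0.23 to 0.60 for all aquaporins, 0.42 to 0.89 for the PIPs and 0.92 to 1.75 for the TIPs. PIP1;5 reversed to 0.24 with array weights, and leaving out arrays gave −0.54 to 0.25. NIP6;1 reversed to 0.25 without replicate 3. TIP2, the gene outside the rule, reversed to 0.41 with array weights, and leaving out arrays gave −0.57 to 0.36, the highest without replicate 3. Signal over background limits BETA-TIP and 4 other genes that rest on 1 genotype.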
